A study of Homo sapiens with 24 samples.

Results

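Interferon-stimulated genes were followed in SAS cells, an established line from an oral squamous cell carcinoma. The list held 43 genes, chosen as known members of the interferon response with earlier results of these data known. They were matched by gene name to the deposited count table. All 43 were found among its 58735 genes, and 34 of them were among the 15956 genes with enough reads to test. The cells carried NRF2 as the wild type (WT) or with the E79Q change, in the transcription factor of the antioxidant response that NFE2L2 encodes. Each genotype was left untreated, given CB-839 (an inhibitor of glutaminase) at 0.1 µM, irradiated with 4 Gy of x-rays, or given both, which made 8 groups of 3 libraries. The submitters describe a pretreatment of 24 h with drug or vehicle ahead of radiation, with RNA taken 24 h after it. That text covers the 4 irradiated groups and 12 samples, while the labels and the table hold 24 samples in 8 groups. When RNA of the unirradiated cells was taken, and whether they were handled with the irradiated ones, is not given, so a batch and radiation cannot be told apart. How the E79Q form was introduced, and whether each genotype is 1 clone, is not given in the labels either.

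Cells sense foreign or misplaced nucleic acid through receptors such as RIG-I, MDA5 and cGAS, which signal through MAVS or STING to kinases and interferon regulatory factors and switch on interferon genes. Secreted interferon binds its receptors, and JAK kinases then activate transcription factors: a complex that holds STAT2 and IRF9 binds the interferon-stimulated response element (ISRE) in the promoters of antiviral genes, and interferon gamma acts through the gamma-activated site (GAS). Many of the induced genes encode sensors, transcription factors or antiviral effectors, and some can be switched on by interferon regulatory factors without secreted interferon. In tumour cells the response is known to be set off by DNA damage as well as by infection.

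Of the 43 members, 27 had a mean of at least 1 CPM (reads of a gene per 1e+06 reads of the scaled library) over the 24 libraries, 7 were tested but low, and 9 fell below the filter. In units scaled for gene length (TPM, transcripts of a gene per 1e+06 transcripts), LGALS3BP, a secreted glycoprotein, was highest, with a median of 189.8 TPM. IFI16, a DNA sensor, had a median of 96.8 TPM, DTX3L, a ubiquitin ligase, 57.9 TPM, UBE2L6, the conjugating enzyme for ISG15, 52.6 TPM, and OAS3, which makes the activator of RNase L, 39.7 TPM. The low members were OAS1, MX1, TRIM22, HERC5, IRF9, GBP2 and IFI44L, with means between 0.444 CPM for MX1 and 0.960 CPM for IFI44L. Too low to judge were OAS2 (97 reads over all 24 libraries), OASL (75), IFI27 (67), BST2 (27), DHX58 (22), CMPK2 (15), RSAD2 (11), MX2 (9) and XAF1, which was listed at 0 in every library. No library held more than 14 reads of any of these 9 genes, and no fold is given for them. RSAD2, CMPK2, MX2, IFI27 and XAF1 are among the genes that interferon typically induces strongly.

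**Figure D1:**
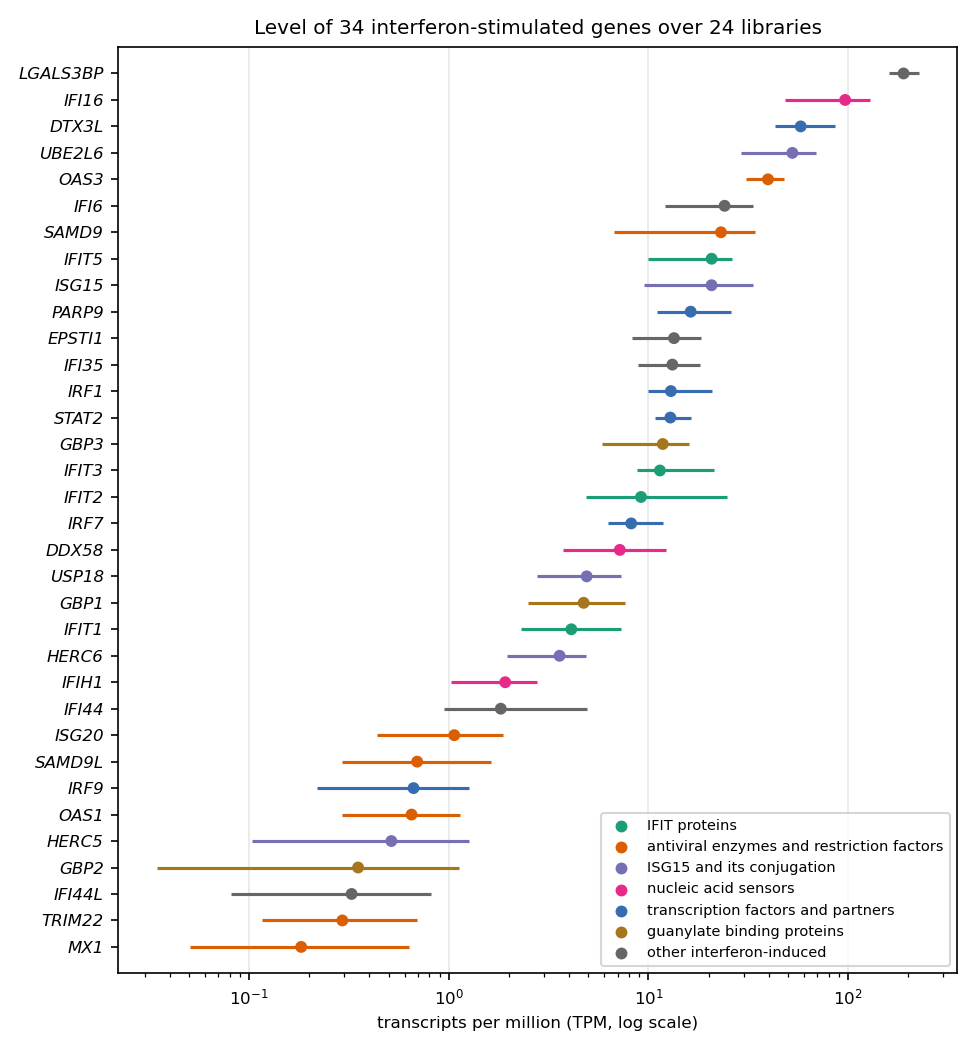
Level of the 34 members tested, in TPM on a log axis. Points are medians over the 24 libraries, lines run from the lowest to the highest library, and colours mark the role of the gene. LGALS3BP is highest at a median of 189.8 TPM, and 8 members lie below 1 TPM.

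The promoters of 34 members were found in RefSeq (GRCh38.p14, from 250 bases before to 50 after the start of the gene); IFIT2, OAS2, OASL, MX2, TRIM22, USP18, DHX58, IRF7 and GBP2 had no entry. The ISRE core was searched as 2 copies of GAAA with any 2 bases (NN) between them, and the GAS as TTCNNNGAA, on both strands. An ISRE core stood in 20 of the 34 (58.82%), against 3.572% of all 34943 promoters, and a GAS in 8 of the 34 (23.53%), against 7.655%. The 2 motifs can overlap, as in the promoters of EPSTI1 and IFI27. A match is a description of the sequence and not evidence of binding. The windows printed here belong to members on which the results turn; each runs 5′ to 3′ on the strand of its gene, with the motif in capitals, and an ISRE core read from the other strand shows as 2 copies of TTTC.
ISG15, ISRE, chr1:1013380-1013409, plus strand: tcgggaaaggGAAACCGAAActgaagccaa
IFIT1, ISRE, chr10:89392510-89392539, plus strand: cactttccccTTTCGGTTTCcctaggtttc
IFIT3, ISRE, chr10:89327865-89327894, plus strand: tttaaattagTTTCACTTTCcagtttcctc
SAMD9, ISRE, chr7:93118096-93118125, minus strand: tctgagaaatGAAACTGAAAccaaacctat
IFI6, ISRE, chr1:27672288-27672317, minus strand: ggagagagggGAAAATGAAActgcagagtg
ISG20, ISRE, chr15:88638937-88638966, plus strand: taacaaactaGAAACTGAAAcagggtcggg
IFI44, ISRE, chr1:78649761-78649790, plus strand: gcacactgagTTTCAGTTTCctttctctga
DTX3L, ISRE, chr3:122564322-122564351, plus strand: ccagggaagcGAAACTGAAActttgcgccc
LGALS3BP, ISRE, chr17:78979962-78979991, minus strand: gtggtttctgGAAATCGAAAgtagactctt
IRF1, GAS, chr5:132490879-132490907, minus strand: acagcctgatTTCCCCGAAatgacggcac
IFI35, GAS, chr17:43006752-43006780, plus strand: aggcagggatTTCACGGAAatgaaagtgg
The core in DTX3L began 6 bases before the RefSeq start site of the gene, which lies inside the span that GENCODE and the table give it. DTX3L and PARP9, whose products act as a pair, lie head to head on opposite strands. Their RefSeq start sites were 446 bases apart, with that of PARP9 inside DTX3L. The 2 genes thus overlap by RefSeq, as they do in the deposited coordinates. In the promoter windows of PARP9, UBE2L6 and DDX58 these letters were not found. A single window was searched per gene. That of PARP9 ended 50 bases past its start site and did not reach the core in DTX3L.

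Total counts ran from 14285084 to 23640197 per library, so 1 CPM stood for 14.5 to 23.59 reads. NQO1, a target of NRF2, was called higher in E79Q cells under all 4 treatments, and CDKN1A, a target of p53, was called higher after radiation in all 4 settings. NFE2L2 itself was called lower in E79Q in untreated cells (log2 difference -0.33) and with both treatments (-0.26). Under CB-839 alone and radiation alone it was not called. Read counts per gene do not reveal the E79Q base change. All 5 epithelial markers were expressed, KRT5 at a mean of 1000 CPM. The leukocyte genes PTPRC and CD3E had at most 2 reads each over all libraries, whereas CD14 was measured at a mean of 1.21 CPM. CD14 was 3.16 ± 0.34 CPM (SD, n = 3) in untreated WT cells and 0.98 ± 0.54 CPM in untreated E79Q cells, and CB-839 lowered it in 3 of 4 settings. Of the endothelial and fibroblast markers, 4 of 7 passed the filter, with summed levels of at most 4.96 and 2.03 CPM. The deviation of a library from its group mean was related to the GC content of the gene most in 2 libraries of irradiated E79Q cells with CB-839, with correlations across 15951 genes of 0.479 in replicate 2 and -0.38 in replicate 1. The 4 libraries with the highest positive values, 0.166 to 0.479, were left out together as an alternative. Libraries with negative values, among them replicate 1 of irradiated E79Q with CB-839 at -0.38, were kept in it. Members whose call was lost, or whose change moved by over 1.5 times, without replicate 2 are named with those values below. Separate cultures are not stated for the replicates, so p-values measure the spread between these samples, and in bulk RNA fewer expressing cells and less RNA per cell cannot be told apart.

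The starting points of the pathway were next read. Of 9 interferon genes listed, only IFNE, an epithelial type I interferon, passed the filter, at a mean of 1.495 CPM. IFNB1, the interferon made first by most cells, had 25 reads in total and no more than 4 in a library, and IFNG, IFNL2 and IFNL3 had none. The receptors IFNAR1, IFNGR1 and IFNGR2 had medians of 33.3, 53.8 and 59.6 TPM, while IFNAR2 was at 0.716 TPM. JAK1 and STAT3, which carry signals of cytokine receptors, had medians of 81.8 and 66.8 TPM. STAT2 was lower, at 12.9 TPM, and IRF9, its DNA-binding partner, at 0.666 TPM. IRF9 overlaps AL136295.5 on the same strand, so reads of a shared stretch could be assigned to neither gene. Whether this lowered the count of IRF9 was not tested.

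Differences were tested with edgeR's quasi-likelihood model over all 24 libraries, and a gene was called where its p, adjusted by Benjamini-Hochberg over all 15956 genes, was under 0.05. Fold changes are on the log2 scale with a standard error (SE). The SE was derived as the size of the change divided by the square root of the test's F statistic. In the 12 comparisons of 2 groups, between 4 and 20 of the 34 members were called, and 5 (OAS1, TRIM22, HERC5, USP18 and IRF9) in none of the 12. In the 4 cases where no member was called in one direction, none had an unadjusted p under 0.05 in that direction by edgeR (0), and DESeq2 called 0. Among the 27 members above 1 CPM, the group of highest mean was irradiated WT for 11 and untreated WT for 6, and the lowest means fell in unirradiated cells with CB-839 for 14, in 7 for each genotype. Comparisons that share a group are not independent: the 3 untreated WT libraries enter the untreated genotype comparison and both treatment comparisons in WT cells.

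**Figure D2:**
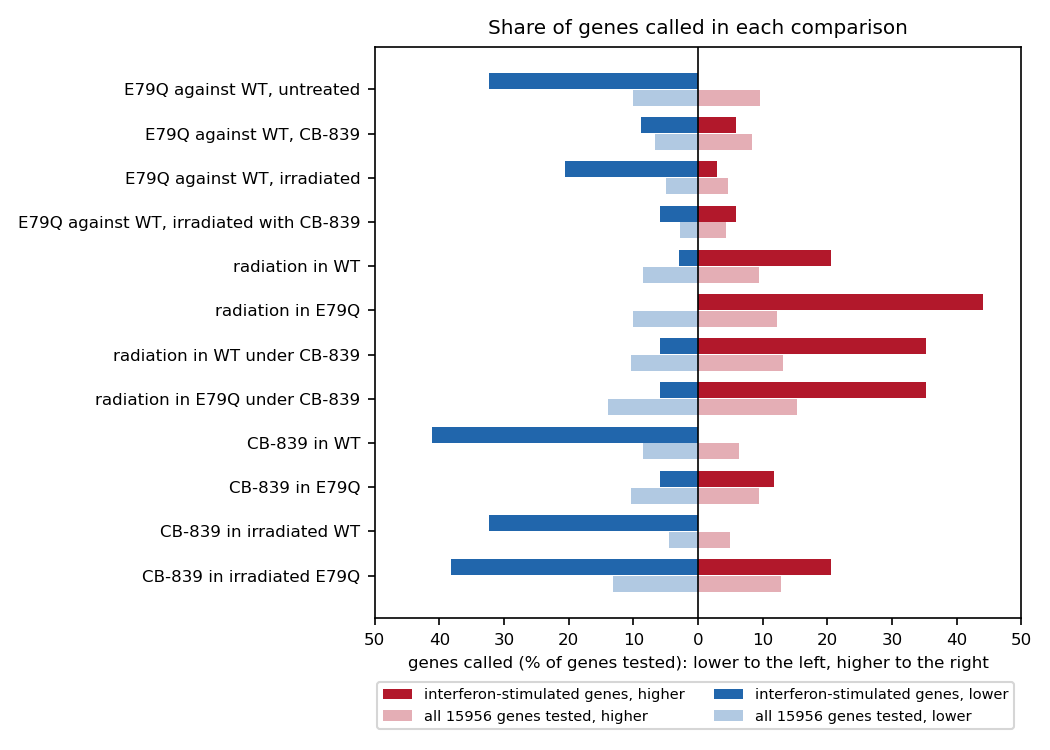
Share of genes called lower (left) and higher (right) in each of the 12 comparisons, in percent of genes tested. Dark bars are the 34 interferon-stimulated genes and pale bars all 15956 genes tested. In untreated E79Q against WT cells 32.4% of members were lower, beside 10.1% of all genes, and after radiation in E79Q cells 44.1% were higher, beside 12.2%.

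The first question was how the interferon-stimulated genes differed between the genotypes. In untreated cells 11 of 34 members were lower in E79Q than in WT and none higher, beside 10.1% of all genes tested lower and 9.62% higher. The median log2 difference was -0.40 over the members and -0.01 over all genes, and 30 of 34 members lay below 0. By role, the transcription factors and their partners held 4 of the 11 lower members (STAT2, IRF1, PARP9 and DTX3L, of 6 tested) and the IFIT proteins 2 (IFIT1 and IFIT2, of 4), while none of the 3 nucleic acid sensors or 3 guanylate binding proteins was called.

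IRF1, a transcription factor of interferon gamma and antiviral genes (ENSG00000125347, chromosome 5 at 132481609 to 132490798), was at 40.8, 39.6 and 40.5 CPM in the untreated WT libraries and at 26.4, 24.1 and 22.7 CPM in E79Q. Every E79Q library lay below every WT library. The log2 difference was -0.72 (SE 0.088, edgeR adjusted p = 5.39e-07). UBE2L6 (ENSG00000156587, chromosome 11 at 57551656 to 57568284) had 35.4, 32.9 and 32.8 CPM in WT and 21.5, 20.7 and 17.5 CPM in E79Q, again without overlap, a difference of -0.76 (SE 0.085, adjusted p = 1.36e-07). ISG15 itself, the ubiquitin-like protein that UBE2L6 conjugates, was not called between the untreated genotypes: its WT libraries spread from 2.58 to 5.56 CPM around the E79Q values of 3.48, 3.59 and 3.68 CPM.

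PARP9, which recognises ADP-ribose at damaged DNA, and its partner DTX3L were the members called lower in E79Q under all 4 treatments. PARP9 (ENSG00000138496, chromosome 3 at 122527924 to 122564577) was at 49.96, 52.1 and 49.93 CPM in untreated WT and 32.4, 37.1 and 33.7 CPM in untreated E79Q cells, a log2 difference of -0.56 (SE 0.070, edgeR adjusted p = 8.57e-07). With CB-839, after radiation and after both, the PARP9 difference was -0.41, -0.49 and -0.41. DTX3L (ENSG00000163840, chromosome 3 at 122564238 to 122575203) was at 117, 118 and 109 CPM in untreated WT and 76.3, 83.1 and 82.8 CPM in untreated E79Q, a difference of -0.50, and its differences under the other treatments were -0.25, -0.32 and -0.27. The last was -0.17 without irradiated E79Q with CB-839 replicate 2 (adjusted p = 0.0621), and its call was also lost without replicate 2 or 3 of irradiated WT with CB-839 and with the 2 groups compared alone (adjusted p = 0.322). In each of these 8 comparisons the 3 libraries of E79Q lay below the 3 of WT. The 2 genes overlap on opposite strands and the strand setting of the counting is not given, so reads of the shared stretch could be assigned to neither or to the wrong gene.

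The other lower members in untreated cells included IFI35, a partner of the factor NMI, at 8.68, 8.71 and 8.11 CPM in WT and 6.09, 4.76 and 5.66 CPM in E79Q (log2 difference -0.62, SE 0.15). EPSTI1, a gene first described in epithelial and stromal interaction, was at 18.1, 18.1 and 16.5 against 12.2, 10.8 and 13.9 CPM (-0.51, SE 0.11). LGALS3BP was at 196, 209 and 201 against 158, 162 and 157 CPM (-0.35, SE 0.055). None of these overlapped. MX1, the dynamin-like restrictor of influenza virus, was low, at 1.43, 0.745 and 0.567 against 0.218, 0.294 and 0.226 CPM, and without the highest of these libraries, untreated WT replicate 1, its call was lost (adjusted p = 0.0857). Of the 11 calls, 8 were kept when any 1 library was left out; IFIT1, IFIT2 and MX1 were not. Markers moved in the same comparison: all 5 of the epithelial markers were called lower in E79Q, with a median of -0.71, among them KRT14 at a mean of 38.6 CPM in WT and 13.7 CPM in E79Q and CDH1 at 136.5 and 71.7 CPM. CD14 (-1.68, SE 0.37) and the endothelial VWF (-0.78, SE 0.23) were lower too. Under CB-839, radiation and both, 4, 5 and 4 of the 5 epithelial markers were lower in E79Q. The part of these shifts in the members' results was not tested.

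Under CB-839, 2 members were higher and 3 lower in E79Q, beside 8.30% and 6.72% of all genes, a share close to the background. The lower members were IFIT1, PARP9 and DTX3L and the higher ones IFI44L (1.77 on the log2 scale, from 0.451, 0.515 and 0.225 to 1.45, 1.35 and 1.32 CPM) and OAS3 (0.23). The call of IFIT1 was lost without E79Q with CB-839 replicate 1 (adjusted p = 0.0542), and that of OAS3 without WT with CB-839 replicate 2 or E79Q with CB-839 replicate 3 (adjusted p = 0.072 and 0.0692). After radiation 1 member was higher and 7 lower, beside 4.69% and 4.95% of all genes, and the member median was -0.19 against 0.01 over all genes. The 7 were UBE2L6, IRF1, PARP9, DTX3L, IFI35, EPSTI1 and LGALS3BP. EPSTI1 had the lowest ratio of them, with 20.9, 20.3 and 23.2 CPM in irradiated WT and 11.8, 14.6 and 12.0 CPM in irradiated E79Q cells (-0.75, SE 0.11, edgeR adjusted p = 1.05e-05). IFI44, a GTP-binding antiviral protein, was the higher member, at 1.01, 1.47 and 0.897 against 2.03, 2.70 and 2.17 CPM, but lost its call when any of 5 of the 6 libraries was left out, as did IFI35 among the lower members (adjusted p of 0.0559 to 0.18). With both radiation and CB-839, 2 members were higher (OAS3 and IFI44L) and 2 lower (PARP9 and DTX3L), beside 4.40% and 2.86% of all genes. Of these 4 only PARP9 was called without each library in turn, and the count fell to 1 without irradiated WT with CB-839 replicate 3, and to 2 without replicate 2 of that group or replicate 2 of irradiated E79Q with CB-839, where OAS3 was at 0.15 in place of 0.20 (adjusted p = 0.116).

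**Figure D3:**
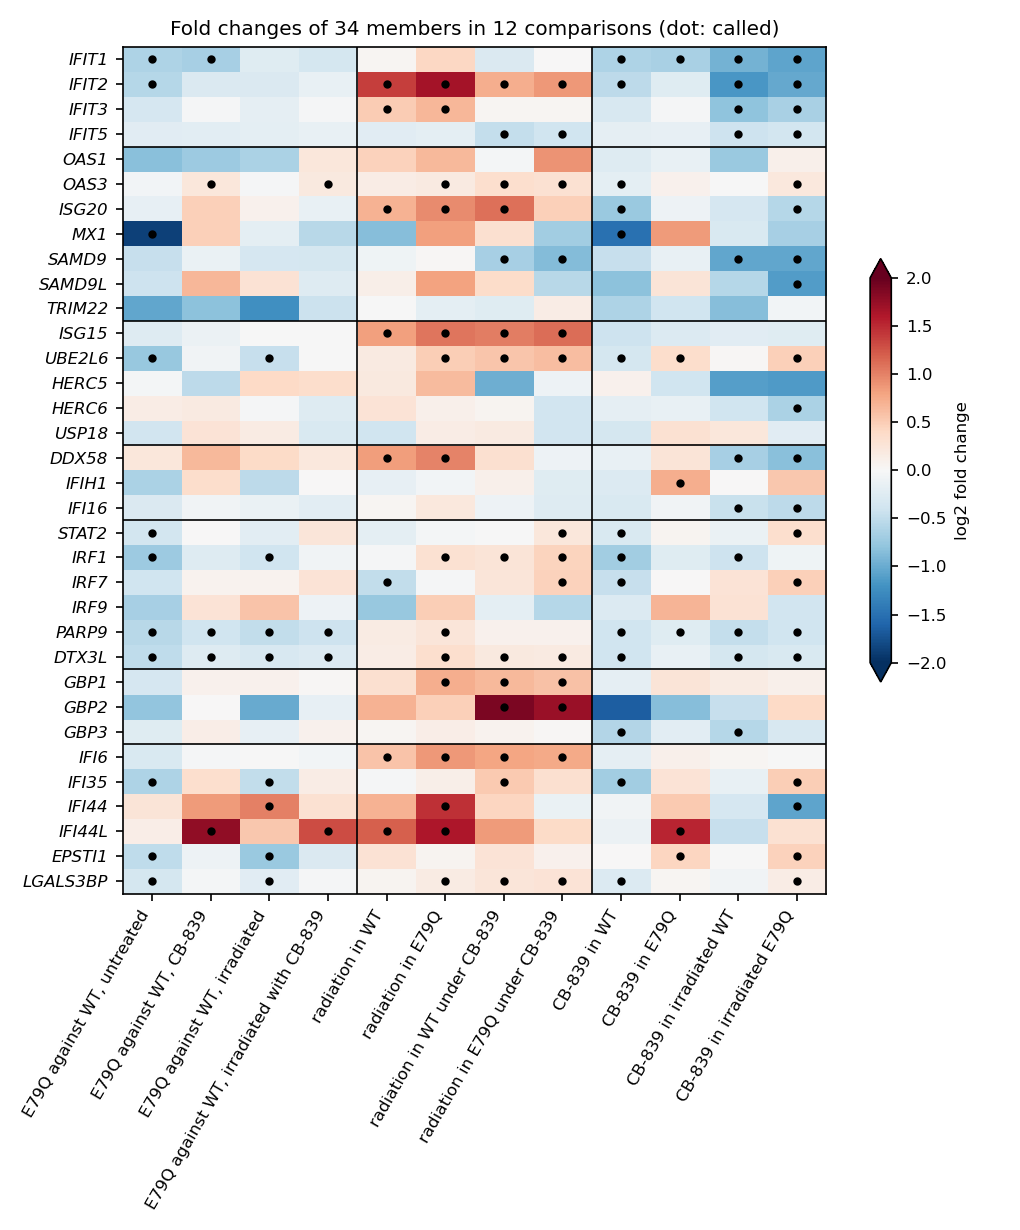
Log2 fold change of the 34 members (rows, grouped by role) in the 12 comparisons (columns), red for higher and blue for lower, with the colour scale ending at 2 in each direction. Black dots mark calls. PARP9 and DTX3L carry blue dots in all 4 genotype columns, and IFIT2, ISG15 and IFI6 red dots in all 4 radiation columns.

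The second question was what radiation did. In WT cells 7 of 34 members were higher and 1 lower 24 h after 4 Gy, beside 9.41% and 8.49% of all genes, with a member median of 0.15 against 0.00. In E79Q cells 15 were higher and none lower, beside 12.2% and 10.1% of all genes, with a median of 0.38 against 0.02. Under CB-839, 12 were higher and 2 lower in WT (13.2% and 10.4% of all genes) and 12 higher and 2 lower in E79Q (15.3% and 13.9% of all genes). These 4 comparisons share no library. IFIT2, ISG15 and IFI6 rose in all 4, and OAS3, ISG20, UBE2L6, IRF1, DTX3L, GBP1 and LGALS3BP in 3 of them. Whether radiation acted differently with and without the drug was not tested, so a call in only one of these settings shows no such difference.

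IFIT2, a tetratricopeptide protein that binds viral RNA and restrains translation (ENSG00000119922, chromosome 10 at 89283694 to 89309276), changed most among members above 1 CPM in cells without the drug. It was at 9.89, 10.0 and 9.70 CPM in untreated WT and 26.8, 24.8 and 25.5 CPM in irradiated WT libraries, a log2 change of 1.38 (SE 0.14, edgeR adjusted p = 1.98e-08). In E79Q it went from 5.496, 7.05 and 7.47 CPM to 20.4, 21.5 and 21.2 CPM, a change of 1.66 (SE 0.15, adjusted p = 2.08e-09). All irradiated libraries without the drug stood well above all the others. Under CB-839 the change was 0.73 (SE 0.15) in WT and 0.87 (SE 0.16) in E79Q. IFIT3, its binding partner, rose by 0.51 (SE 0.14) in WT and 0.67 (SE 0.14) in E79Q without the drug; under the drug its changes were not called. IFIT1, which binds RNA without a self-type cap, was not called after radiation in any setting, at 8.85, 6.59 and 7.32 CPM in untreated and 7.24, 8.03 and 8.25 CPM in irradiated WT cells. IFIT1, IFIT2 and IFIT3 overlap LIPA on the other strand, and IFIT2 also overlaps AL353751.1 on the same strand. The IFIT genes, like the GBP genes, are related copies between which reads could be shared.

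ISG15 (ENSG00000187608, chromosome 1 at 1001138 to 1014540) was at 8.10, 7.42 and 7.17 CPM in irradiated WT and at 7.503, 6.70 and 8.46 CPM in irradiated E79Q cells, above the untreated values of both genotypes. With the drug it went from 2.88, 3.49 and 3.21 CPM to 8.34, 4.81 and 6.15 CPM in WT, and from 2.34, 3.01 and 3.42 CPM to 5.89, 6.98 and 6.30 CPM in E79Q. No irradiated library overlapped its unirradiated group. The log2 changes were 0.83 in WT, 1.07 in E79Q, and 1.02 and 1.12 under CB-839 (SE 0.20, 0.20, 0.21 and 0.21). UBE2L6 rose by 0.49, 0.55 and 0.61 in E79Q, in WT under the drug and in E79Q under the drug. In WT without the drug it was at 35.4, 32.9 and 32.8 CPM before and 38.7, 38.1 and 38.1 CPM after, and was not called.

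Among the sensors, DDX58, which encodes RIG-I, was called higher without the drug and was not called with it. Its WT libraries went from 4.23, 7.39 and 6.41 CPM to 10.9, 11.2 and 10.1 CPM (log2 change 0.84, SE 0.21), and its E79Q libraries from 4.95, 9.82 and 6.45 to 14.1, 13.8 and 14.3 CPM (0.995, SE 0.20). Those groups did not overlap in either genotype. With the drug, mean DDX58 went from 5.40 to 6.78 CPM after radiation in WT and from 8.46 to 7.95 CPM in E79Q. IFIH1, which encodes MDA5, and IFI16 were not called after radiation in any of the 4 settings. GBP1, a guanylate binding protein that attacks pathogen membranes, rose in 3 settings, by 0.73, 0.65 and 0.58, and GBP2 only reached a call under the drug, at levels of at most 1.29 CPM there.

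Of the remaining members, IFI6, an antiapoptotic and antiviral protein, rose by 0.57, 0.87, 0.79 and 0.75 in the 4 settings in the order given above. ISG20, an exonuclease, went from 2.07, 1.47 and 1.64 to 3.65, 3.01 and 3.28 CPM in E79Q (0.94, SE 0.21). IFI44 went from 0.762, 1.12 and 0.623 to 2.03, 2.70 and 2.17 CPM in E79Q (1.46, SE 0.33). The members called lower were IRF7 in WT (-0.49, SE 0.15) and, in the settings with the drug, IFIT5 and SAMD9. SAMD9, a restrictor of poxvirus translation, went from 48.1, 42.8 and 33.9 to 18.2, 31.6 and 29.4 CPM in WT and from 33.3, 40.4 and 39.6 to 28.8, 12.9 and 21.2 CPM in E79Q, the lowest value being that of the library of strongest GC trend. Without that library SAMD9 changed by -0.61 in E79Q in place of -0.87 (adjusted p = 0.00444), IFIT5 by -0.19 in place of -0.40 (adjusted p = 0.191), and STAT2, which had risen by 0.23 there, by 0.22 (adjusted p = 0.105). DTX3L changed by 0.28 in place of 0.19 without it (adjusted p = 0.000624). In WT the edgeR call of SAMD9 was lost without replicate 1 of WT with CB-839 (adjusted p = 0.0639). It was also lost without replicate 1 of irradiated WT with CB-839 (adjusted p = 0.0871). That library was the one at 18.2 CPM, and its GC correlation was 0.257.

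The WT count of 8 moved both ways. It was 14 with the groups compared alone, with GC and length trends removed, and with the 4 libraries of highest GC correlation left out, and all 8 calls were among those 14 each time. The share of all genes called in these runs is not given. The WT count fell to 3 without untreated WT replicate 1, to 5 without untreated WT replicate 3 and to 4 without irradiated WT replicate 1. IFIT2 and ISG15 alone were called whichever library was left out. In E79Q 10 of 15 calls were kept so (IFIT2, IFIT3, ISG20, ISG15, UBE2L6, DDX58, DTX3L, IFI6, IFI44 and IFI44L). Under the drug the count of 14 fell to 9 in WT without WT with CB-839 replicate 1, and to 9 in E79Q without replicate 1 or 2 of E79Q with CB-839 or replicate 3 of irradiated E79Q with CB-839. In each of the 2 comparisons 8 of 14 calls were kept whichever library was left out. IFIT2, OAS3, ISG15, UBE2L6, IFI6 and LGALS3BP were among them in both. In E79Q, however, IFI6 and LGALS3BP lost their calls with the groups compared alone. LGALS3BP also lost its call there with GC and length trends removed.

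Whether radiation acted differently in the 2 genotypes was tested as the change in E79Q minus that in WT. No member was called, beside 0.815% of all genes with a larger and 0.445% with a smaller change in E79Q. The member median was 0.19 against 0.01 over all genes, and 30 of 34 members lay above 0; at an unadjusted p under 0.05 edgeR gave 4 members (MX1, UBE2L6, IRF1 and IRF7), all larger in E79Q, and DESeq2 called 0. The difference for IFIT2 was 0.28, with an interval of 2 SE either side from -0.12 to 0.68, and for ISG15 0.25, from -0.32 to 0.81. Under CB-839 no member was called either, beside 0.363% and 0.714% of all genes, with 0 members at an unadjusted p under 0.05 and 0 called by DESeq2. There the member median was -0.04 against -0.01 over all genes.

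**Figure D4:**
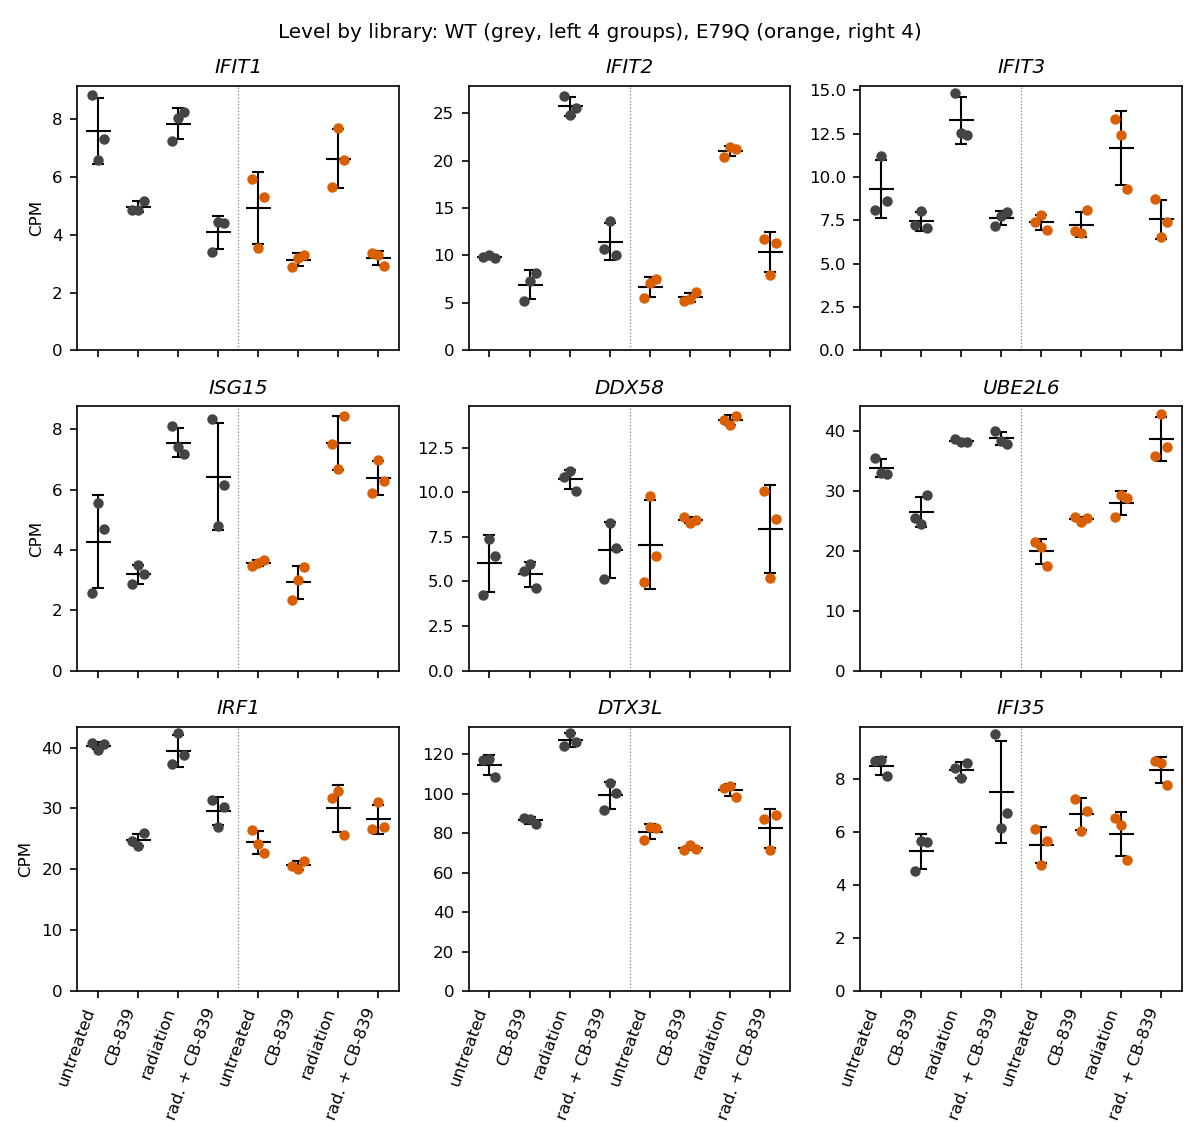
CPM of 9 members in every library, by group, with WT on the left (grey) and E79Q on the right (orange); bars show the mean and SD of 3 libraries and every axis starts at 0. IFIT2 stands at 20.4 to 26.8 CPM in irradiated cells without the drug and at most at 13.6 CPM elsewhere.

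The third question was the effect of CB-839. In unirradiated WT cells 14 of 34 members were lower and none higher, beside 8.44% and 6.35% of all genes, with a member median of -0.34 against -0.01, and 32 of 34 members lay below 0. In unirradiated E79Q cells 4 were higher and 2 lower, beside 9.44% and 10.4% of all genes, with a median of -0.01 against 0.02. In irradiated WT 11 were lower and none higher (4.53% and 4.99% of all genes), and in irradiated E79Q 13 were lower and 7 higher (13.1% and 12.9% of all genes). These 4 comparisons share no library. IFIT1 and PARP9 fell in all 4, and IFIT2 and DTX3L in 3.

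The IFIT proteins fell together in irradiated cells: all 4 were called lower in both genotypes. IFIT2 went from 26.8, 24.8 and 25.5 CPM to 10.7, 13.6 and 10.0 CPM in irradiated WT (log2 change -1.17, SE 0.13, edgeR adjusted p = 1.49e-06) and from 20.4, 21.5 and 21.2 to 11.8, 7.90 and 11.4 CPM in irradiated E79Q (-1.03, SE 0.14, adjusted p = 3.22e-06). In neither genotype did the libraries with the drug reach those without it, and they lay nearer to the untreated libraries than to the irradiated ones. IFIT1 went from 7.24, 8.03 and 8.25 to 3.41, 4.44 and 4.39 CPM in irradiated WT (-0.94, SE 0.16) and from 5.64, 7.68 and 6.57 to 3.37, 3.28 and 2.90 CPM in irradiated E79Q (-1.05, SE 0.17). In unirradiated cells IFIT1 changed by -0.61 in WT and -0.65 in E79Q, each call being lost without 1 library (untreated WT replicate 1 and untreated E79Q replicate 1). IFIT3 fell by 0.80 and 0.64 in irradiated WT and E79Q on the log2 scale, and IFIT5 by 0.42 and 0.37. The fall of IFIT5 in E79Q was no longer called without replicate 2 of the drug group (-0.16, adjusted p = 0.287) or with GC and length trends removed (-0.14, adjusted p = 0.25).

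SAMD9 changed by -1.04 in irradiated WT (SE 0.18) and -1.04 in irradiated E79Q (SE 0.19), where it was -0.78 without replicate 2 of the drug group. Its neighbour SAMD9L fell in irradiated E79Q, from 2.84, 2.02 and 1.84 to 0.962, 1.02 and 1.13 CPM. DDX58 fell in both irradiated genotypes (-0.67 and -0.84) and so did IFI16 (-0.44 and -0.53), at 162, 155 and 175 CPM against 97.2, 135 and 130 CPM in WT and 148, 157 and 145 against 131, 72.3 and 110 CPM in E79Q. Without replicate 2 of the irradiated E79Q drug group the falls of DDX58 and IFI16 there were -0.60 and -0.32, both still called. In irradiated WT the calls of DDX58, IFI16, IFIT5 and GBP3 did not hold with fewer libraries. All 4 were lost, and the count fell from 11 to 7, without any 1 of the 3 irradiated WT libraries. The same happened without replicate 1 of the drug group. Their changes stayed negative in every alternative run. In irradiated E79Q 12 of 20 calls were kept without each library in turn; those of IFIT5, OAS3, ISG20, SAMD9L, IRF7, IFI35, IFI44 and LGALS3BP were not. Without replicate 2 of the drug group, OAS3 changed there by 0.16 in place of 0.21 (adjusted p = 0.0544), IFI44 by -0.90 in place of -1.05 (adjusted p = 0.0801) and LGALS3BP by 0.09 in place of 0.15 (adjusted p = 0.236).

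IRF1 fell with the drug in unirradiated WT cells, from 40.8, 39.6 and 40.5 CPM to 24.6, 23.9 and 25.9 CPM (log2 change -0.70, SE 0.088, edgeR adjusted p = 1.46e-06), and in irradiated WT by 0.42 on the log2 scale. No library with the drug reached any library without it. In E79Q cells, where untreated IRF1 was at 26.4, 24.1 and 22.7 CPM, the drug libraries were at 20.5, 19.995 and 21.4 CPM and the change was not called. PARP9 changed by -0.40, -0.24, -0.48 and -0.40 in unirradiated WT, unirradiated E79Q, irradiated WT and irradiated E79Q. DTX3L changed by -0.40 in WT, -0.36 in irradiated WT and -0.30 in irradiated E79Q. STAT2 and IRF7 fell in unirradiated WT and rose in irradiated E79Q. Of the 14 calls in unirradiated WT, those of UBE2L6, IRF1, PARP9, DTX3L, IFI35 and LGALS3BP were kept without each library in turn, and the count fell to 7 without untreated WT replicate 1 and to 9 without WT with CB-839 replicate 1.

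The 7 members that rose with the drug in irradiated E79Q were OAS3, UBE2L6, STAT2, IRF7, IFI35, EPSTI1 and LGALS3BP. UBE2L6 was at 25.6, 29.3 and 28.8 CPM without and 35.7, 42.8 and 37.3 CPM with the drug (log2 change 0.47, SE 0.081, adjusted p = 0.00011 by edgeR). IFI35 was at 6.53, 6.28 and 4.95 against 8.66, 8.60 and 7.78 CPM (0.49, SE 0.15). EPSTI1 was at 11.8, 14.6 and 12.0 against 20.3, 15.02 and 17.3 CPM (0.45, SE 0.11). LGALS3BP rose by 0.15, with overlapping groups, and was 0.02 with GC and length trends removed (adjusted p = 0.845). In unirradiated E79Q the risers were UBE2L6, IFIH1, IFI44L and EPSTI1; no call of that comparison was kept under every omission of 1 library, and its count fell from 6 to 3 without untreated E79Q replicate 2.

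Across all genes the drug's fold changes in irradiated cells were related to GC content, with correlations over 15951 genes of 0.191 in WT and 0.292 in E79Q, while in unirradiated cells they were -0.085 and -0.063. Median GC content was 44.2% for the 34 members and 48.5% for all genes tested. Members that fell in irradiated cells included SAMD9 (36% GC), IFIT5 (37.4%), IFI16 (38.6%) and DDX58 (40.5%), and those that rose IRF7 (66.8%), LGALS3BP (60.5%), IFI35 (58.8%) and UBE2L6 (57.2%). Others went against this order: EPSTI1 (42.3%) rose and ISG20 (53%) fell in irradiated E79Q, and IRF1 (52.6%) fell in irradiated WT. With GC and length trends removed from every library, 12 members were lower and 0 higher in irradiated WT, and 12 lower and 6 higher in irradiated E79Q. The share of all genes called in that run is not given. The calls lost in irradiated E79Q were those of IFIT5, IRF7 and LGALS3BP. Radiation's fold changes under CB-839 were also related to GC content, with correlations of 0.209 in WT and 0.322 in E79Q. Without the drug these were -0.017 and -0.0192. With the trends removed, radiation under CB-839 lost the calls of IFIT5, STAT2, IRF7 and LGALS3BP in E79Q and of IRF1 in WT. CD14 fell with the drug in both irradiated genotypes (-1.79 and -1.60) and in unirradiated WT (-1.45). Of the 5 epithelial markers KRT14 and CDH1 fell with the drug in unirradiated WT and rose in irradiated E79Q, and TP63 and CDH1 fell in irradiated WT; the part of these shifts in the members' results was not tested.

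**Figure D5:**
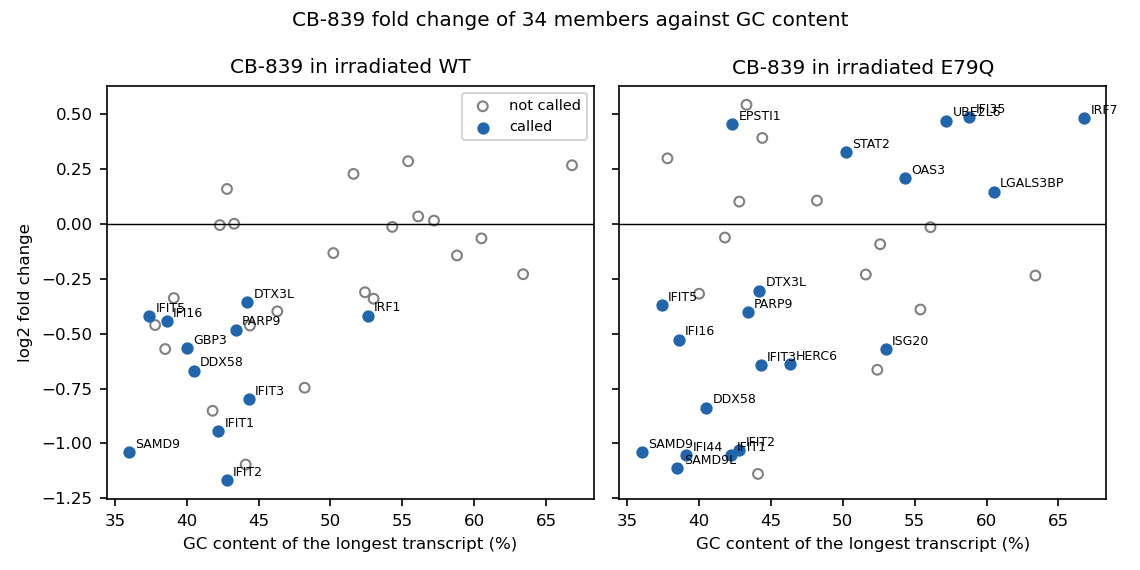
Log2 fold change with CB-839 in irradiated WT (left) and irradiated E79Q cells (right) of the 34 members against the GC content of their longest transcript, in percent. Filled points are called members. SAMD9, at 36% GC, lies at -1.04 in both panels, and UBE2L6, at 57.2%, is called only on the right.

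The drug's effect was then compared between the genotypes, as the change in E79Q minus that in WT. In unirradiated cells 8 of 34 members were called, all with a higher value in E79Q, beside 7.46% of all genes higher and 6.83% lower; the member median was 0.37 against 0.03 over all genes. The 8 were OAS3, MX1, UBE2L6, IFIH1, STAT2, IRF1, IFI35 and LGALS3BP. UBE2L6 went from 35.4, 32.9 and 32.8 to 25.5, 24.5 and 29.3 CPM in WT and from 21.5, 20.7 and 17.5 to 25.6, 24.9 and 25.4 CPM in E79Q, so that it fell in one genotype and rose in the other (difference 0.70, SE 0.12, edgeR adjusted p = 0.000189). IFI35 went from 8.68, 8.71 and 8.11 to 4.51, 5.66 and 5.63 CPM in WT, and from 6.09, 4.76 and 5.66 to 7.24, 6.03 and 6.79 CPM in E79Q (difference 0.97, SE 0.22, adjusted p = 0.00292). LGALS3BP went from 196, 209 and 201 to 176, 160 and 168 CPM in WT and from 158, 162 and 157 to 162, 163 and 167 CPM in E79Q (difference 0.31, SE 0.078). In these genes the WT libraries moved with the drug towards the level of E79Q, and the untreated WT libraries were the highest of the 4 unirradiated groups. The same untreated WT libraries enter the difference by which these genes were picked, so this pattern is not separate from that call. IRF1 had a difference of 0.46 (SE 0.13).

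UBE2L6, IRF1, IFI35 and LGALS3BP were called whichever library was left out. The count of 8 fell to 5 without untreated WT replicate 1, without WT with CB-839 replicate 2 or 3, or without E79Q with CB-839 replicate 1 or 2, and to 4 without E79Q with CB-839 replicate 3. In irradiated cells 2 members differed, UBE2L6 (0.46, SE 0.11) and STAT2 (0.46, SE 0.12), beside 1.26% of all genes higher and 0.652% lower. Both lost their calls without irradiated WT replicate 2 or 3, irradiated E79Q replicate 3, or irradiated WT with CB-839 replicate 2 or 3, and 1 was left without irradiated WT replicate 1, irradiated E79Q replicate 1 or 2, or irradiated E79Q with CB-839 replicate 3. For IFIT2 the difference in the drug's effect in irradiated cells was 0.14, with an interval from -0.24 to 0.52, and was not called.

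Other genes of the pathway were read from a list of 36 (ligands, receptors, signal carriers, negative regulators and upstream sensors), of which 25 were tested. In untreated cells 1 of the 25 was higher in E79Q and 3 lower, a share near the 9.62% and 10.1% of all genes. After radiation 6 were higher and 2 lower in WT (9.41% and 8.49% of all genes), and 7 higher and 1 lower in E79Q (12.2% and 10.1%). CB-839 lowered 6 and raised none in unirradiated WT (8.44% and 6.35% of all genes), and lowered 5 and raised 5 in irradiated E79Q (13.1% and 12.9%). CGAS, the sensor of cytosolic DNA, was higher in E79Q under all 4 treatments, by 0.69, 1.35, 0.73 and 0.88 in the order untreated, CB-839, radiation and both. It rose with radiation in 3 of 4 settings. TMEM173, which encodes STING, rose with radiation in all 4 settings (0.40, 0.36, 0.75 and 0.44) and fell with CB-839 in all 4 (-0.85, -0.41, -0.49 and -0.33). SOCS3, which restrains JAK signalling, did the same, with radiation changes of 0.53, 0.48, 0.70 and 0.39 and drug changes of -0.46, -0.29, -0.29 and -0.37. IKBKE, a kinase of interferon regulatory factors, rose with radiation in all 4 settings.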

How the data were processed

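RNA of 24 SAS libraries was measured. The authors deposited 1 table of counts, unnormalized reads of each Ensembl gene. Its deposited gene_length column, a measure of another kind, gives gene lengths in bases. STAR, HTSeq and GRCh38 are named in the submitters' processing notes, with no versions; for the annotation, strand setting and trimming nothing was found in the labels. All 43 members and their coordinates matched GENCODE 29.

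The model was edgeR 4.0.16 (limma 3.58.1, R 4.3.3). Genes passed filterByExpr on the 8 groups (minimum count 10), were scaled by TMM, and fitted with 1 mean per group over 24 libraries (16 residual degrees of freedom, common biological coefficient of variation 7.19%). Adjusted p (Benjamini-Hochberg) was taken over 15956 genes in each of 12 pairwise comparisons and 4 differences. With 3 against 3, an exact test of 1 gene cannot go below 0.1. CPM uses the scaled library sizes. TPM uses the deposited lengths, and GC content is of the longest transcript. DESeq2 1.42.0, RLE scaling, no filter, the groups compared alone, a replicate block and leaving out each library were the alternatives. Removal of GC and length trends (lowess span 0.3), and leaving out 4 libraries, were chosen after seeing the data. The procedure was tested on simulated data.

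The members, their roles and the pathway list were chosen with earlier results of these data known. Any member could be named, and pathway genes could be named where called or for their level. NFE2L2, NQO1 and CDKN1A served to check labels. A member was called low under a mean of 1 CPM and too low to judge below the filter. Same-numbered replicates were checked for pairing, and their numbers pair no samples. Some genes of the pathway and marker lists are not reported here.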

Additional observations from a re-analysis of the deposited data

Results flagged for a closer look

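In unirradiated cells the effect of CB-839 differed between the genotypes in 8 members by edgeR's test of the difference (E79Q minus WT, log2). The differences were 2.35 for MX1 (adjusted p = 0.03), 0.987 for IFIH1 (adjusted p = 0.0435), 0.966 for IFI35 (adjusted p = 0.00292) and 0.698 for UBE2L6 (adjusted p = 0.000189). They were 0.458 for IRF1, 0.367 for STAT2, 0.308 for LGALS3BP and 0.291 for OAS3. MX1 was among the low members (SE 0.73). The calls of MX1, IFIH1, STAT2 and OAS3 were each lost on some omissions of 1 library and without the filter. In irradiated cells the difference was 0.456 for UBE2L6 (adjusted p = 0.0324) and 0.462 for STAT2 (adjusted p = 0.0371), and both calls were lost on some omissions of 1 library.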

How the results depend on the processing

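No called fold change reversed under any alternative run. DESeq2 and RLE scaling kept every count of called members within 1.5 times. Without the filter on low counts 4 members differed in the drug's effect between genotypes in unirradiated cells in place of 8, and 1 in irradiated cells in place of 2. With the groups compared alone, calls rose to 13 for irradiated E79Q against WT and to 14 for radiation in WT, and fell to 0 for E79Q against WT with both treatments, 6 for radiation in E79Q under CB-839, 11 for CB-839 in irradiated E79Q and 0 for the drug difference in irradiated cells. Removal of GC and length trends gave 8 calls for E79Q against WT under CB-839 and 14 for radiation in WT. Leaving out the 4 libraries of highest positive GC correlation gave 8 and 14 as well. That omission also gave 1 call for the difference in radiation effect and 5 for the drug difference in irradiated cells. The share of all genes called in these runs, and in the omissions of 1 library below, is not given. The cause of these shifts was not tested.

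Leaving out 1 library at a time, counts ran from 3 to 7 for radiation in WT (8 with all), 9 to 12 and 9 to 14 for radiation under CB-839 in WT and E79Q, 7 to 13 for CB-839 in WT, 3 to 6 for CB-839 in E79Q, 7 to 11 for CB-839 in irradiated WT, 1 to 6 for E79Q against WT with both treatments, and 4 to 8 and 0 to 3 for the drug differences in unirradiated and irradiated cells. The replicate numbers did not pair the samples: over 84 same-numbered pairs the correlation of deviations ran from -0.175 to 0.0871, and 4 of 24 libraries matched their own number best. With the replicate block the drug difference in irradiated cells went from 2 calls to 0, and every other count stayed within 1.5 times. At 1 CPM a member rests on 14.5 to 23.59 reads per library, which limits what can be seen in the low members.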
